A study of Mus musculus with 12 samples.

Results

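The imprinted cluster that runs from miR-379 to miR-410 lies in the Dlk1-Dio3 domain of mouse chromosome 12. Its mature miRNAs were chosen by name, as those on the array that carry one of 34 listed hairpin numbers, with any arm or star. The array holds 49 of them among 611 mouse miRNAs. The hairpins of miR-453, miR-1193 and miR-1197 also lie between those of miR-379 and miR-410 but are not among the listed numbers, and these miRNAs were detected on 0, 1 and 0 arrays. They were measured in embryonic fibroblasts of C57BL/6 background, labelled ATF6bWT or ATF6bKO. ATF6b is a transcription factor held in the membrane of the endoplasmic reticulum and released from it by cleavage under protein folding stress. Cells of each genotype were left untreated or were given 2 ug/mL tunicamycin, an inhibitor of N-linked protein glycosylation that brings on such stress, for 12 h or for 24 h. The 6 groups have 2 arrays each, 12 in all, and WT and KO below stand for those 2 genotypes. The design asks how ATF6b bears on the miRNA response to tunicamycin. The genotype itself could not be checked, because ATF6b is not on a miRNA array, and the lines or embryos behind each genotype are not given in the sources used here.

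The Dlk1-Dio3 domain is imprinted: its protein-coding genes are expressed from the paternal chromosome and its long noncoding RNAs and miRNAs from the maternal one. The cluster's hairpins are cut from long noncoding transcripts downstream of Meg3, and the last of them lie within the gene Mirg. Each hairpin can yield a mature strand from either arm. In old names a star marks the strand then thought to be the minor product. The cluster is known for its expression in embryo, placenta and brain, where miR-134 restrains Limk1 in dendritic spines, and fibroblasts from embryos express it as well. In mouse kidney cells its host transcript has been reported to rise under endoplasmic reticulum stress.

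The sequences below belong to the members on which the results turn and to the partner strands of the same hairpins. They are RefSeq mature sequences of build GRCm38.p6, written 5′ to 3′, with the seed (bases 2 to 8) in capitals. Names are those of the array. The arm behind each old name was assigned from the present naming, and a sequence was found for 46 of the 49 members and 21 of the 23 that were tested.
miR-379: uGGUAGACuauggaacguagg
miR-411: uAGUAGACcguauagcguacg
miR-411*: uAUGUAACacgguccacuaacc
miR-329: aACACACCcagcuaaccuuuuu
miR-543: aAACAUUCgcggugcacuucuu
miR-495: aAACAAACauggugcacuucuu
miR-376a: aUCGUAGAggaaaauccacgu
miR-376a*: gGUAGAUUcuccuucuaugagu
miR-382: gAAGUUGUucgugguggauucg
miR-134: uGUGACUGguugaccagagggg
miR-154: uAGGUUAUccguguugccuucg
miR-154*: aAUCAUACacgguugaccuauu
miR-541: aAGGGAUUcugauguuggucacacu
miR-409-5p: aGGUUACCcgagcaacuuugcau
miR-409-3p: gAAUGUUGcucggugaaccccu
miR-369-5p: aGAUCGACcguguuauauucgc
miR-410: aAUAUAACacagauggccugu

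All 46 sequences lie on the plus strand of chromosome 12. From the first base of miR-379 to the last of miR-410 they span chr12:109709065-109743784, or 34.72 kb. The hairpins of 11 members, 8 of them tested, lie inside Mirg, and those of the others lie before it. The seeds are nearly all different, with 45 distinct seeds among the 46 sequences. The only shared seed, UGGAUAU, belongs to miR-376b* and miR-376c*, which differ at 1 of 22 bases and of which neither was tested. Of pairs with a tested member, miR-300 and miR-381 differ at 3 of 22 bases, miR-376a and miR-376b at 3 of 21, miR-543 and miR-495 at 4 of 22, miR-154* and miR-369-3p at 4 of 21, and miR-411* and miR-758 at 4 of 19. Signal of such a pair may in part be shared on an array, and the files do not separate it. The sequence of miR-299* holds, as its first 18 bases, that of miR-299b-3p, so signal of these could not be told apart either.

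Levels are given as a percentage of each array's 75th percentile signal over the 93 miRNAs detected on all 12 arrays. Changes and standard errors (SE) are on the log2 scale after values below 1.91% were set to that floor. A miRNA is called where limma's Benjamini-Hochberg adjusted p over the 176 tested mouse miRNAs is under 0.05, with n = 2 arrays per group throughout. The 75th percentile signal ranged from 208 to 623 intensity units over the arrays. It was lowest, at 208 to 257, on 3 of them: replicate 2 of WT at 24 h, of KO at 12 h and of KO at 24 h. No slide holds both untreated and treated samples, so an effect of slide and one of treatment cannot be told apart. Each genotype lies in its own row of a slide, and row and genotype cannot be told apart either. On any array 10 to 13 of 14 fibroblast markers and 0 of 7 blood markers were detected. Of 8 epithelial markers 3 to 5 were detected on the treated KO arrays, with a summed level of 265% to 384%, and 0 on all other arrays, where the sum was at most 1.88%. In lysates of whole cultures, fewer cells of a type and less RNA per cell cannot be told apart.

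Of the 49 members, 33 were detected on at least 1 array and 9 on all 12. The 9 were miR-299*, miR-300, miR-329, miR-376a, miR-376c, miR-377, miR-379, miR-410 and miR-411. The 16 detected on no array were miR-323-3p, miR-323-5p, miR-369-3p, miR-376c*, miR-380-5p, miR-412, miR-485, miR-496, miR-539, miR-544, miR-654-3p, miR-654-5p, miR-666-3p, miR-666-5p, miR-679 and miR-758. A further 10 were detected on 1 to 3 arrays, never on both arrays of a group, and were not tested: miR-299, miR-300*, miR-376b, miR-376b*, miR-380-3p, miR-381, miR-382*, miR-485*, miR-667 and miR-668. The remaining 23 were tested. Members detected per array numbered 23 to 26 in untreated cells and 10 to 26 in treated cells, and the lowest counts were 10, 13 and 14, on the 3 arrays of low signal. The members together took 3.64% to 4.30% of the summed mouse signal on untreated arrays, 2.02% to 2.46% on treated WT arrays and 2.37% to 3.04% on treated KO arrays.

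**Figure D1:**
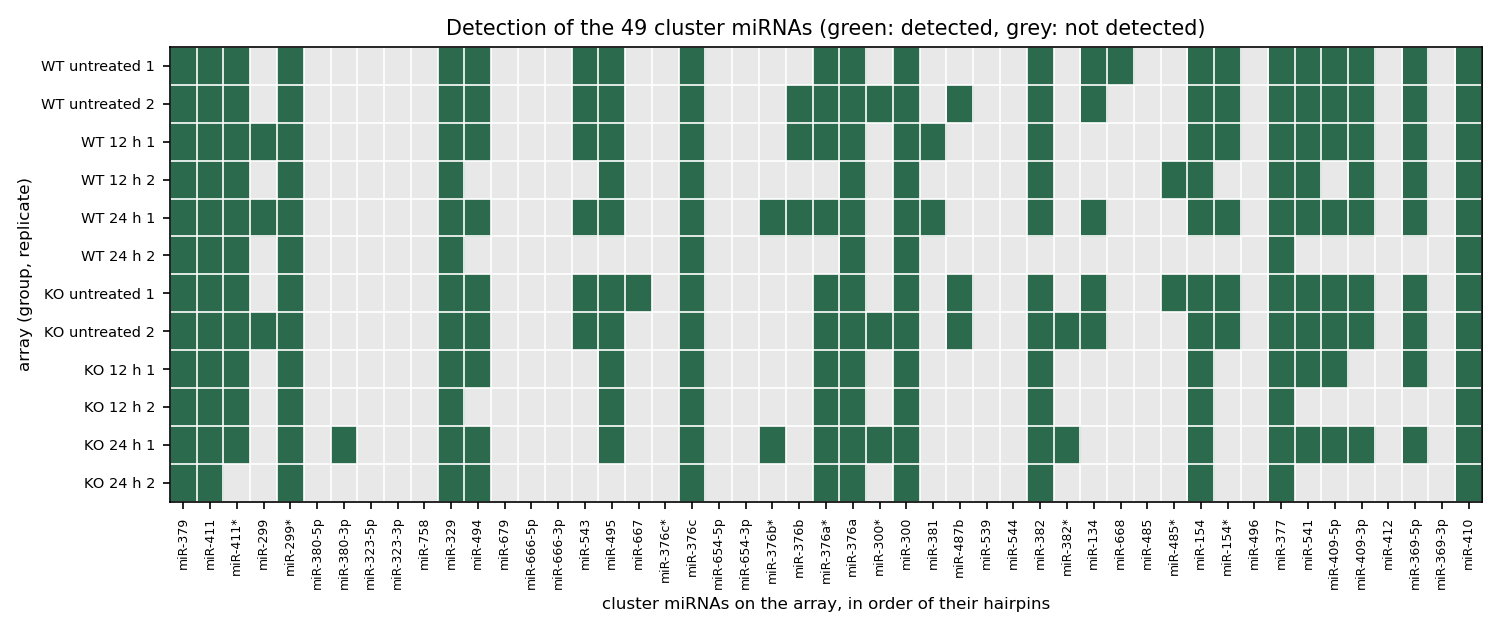
Detection of the 49 cluster miRNAs (columns, in order of their hairpins along the cluster) on the 12 arrays (rows, by group and replicate). Green cells are detected and grey cells are not. The 9 full columns are members found on every array, and replicate 2 of WT at 24 h, with 10 detected members, has the fewest.

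Both strands are on the array for 15 hairpins, 9 of them named with a star. Of the 9 starred strands 8 were detected on at least 1 array, and so were 8 of their 9 partners, while 4 starred strands and 6 partners were tested. The star did not always mark the strand found less often. miR-299* was detected on 12 arrays and miR-299 on 3, and miR-485* on 2 and miR-485 on 0. The reverse held for miR-376c, detected on 12 arrays against 0 for its star strand, for miR-300 with 12 against 3, and for miR-382 with 11 against 2. Detection was closer for miR-411 (12) and miR-411* (11), miR-376a (12) and miR-376a* (10), miR-154 (11) and miR-154* (6), and for miR-409-5p and miR-409-3p (8 each). miR-369-5p was detected on 9 arrays and miR-369-3p on 0. Probes differ in affinity, so these counts do not give the ratio of the strands in the cells.

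**Figure D2:**
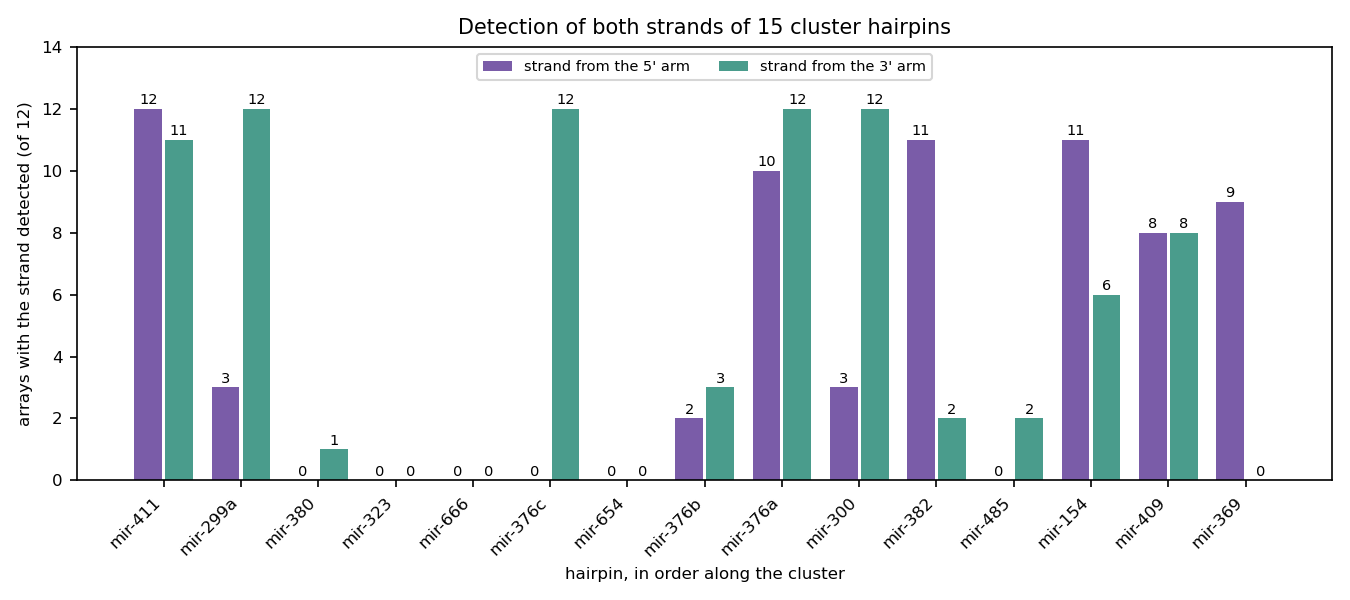
Number of arrays, of 12, on which each strand of the 15 hairpins with both strands on the array was detected, for the strand from the 5′ arm (purple) and from the 3′ arm (green). Hairpins stand in order along the cluster. Bars of mir-299a and mir-376c are far apart between arms, at 3 against 12 and 0 against 12, and those of mir-409 are equal at 8.

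Many of the tested members were lower in wild-type cells given tunicamycin than in untreated ones, on separate slides. At 12 h, 12 of the 23 were called lower and 0 higher, and at 24 h 17 were called lower and 0 higher. Over all 176 tested miRNAs 38.1% were called at 12 h (23.9% lower) and 43.2% at 24 h (29.5% lower). The members' median change was -0.62 at 12 h and -1.02 at 24 h, beside -0.05 and -0.03 over all tested miRNAs. The filter asks for detection on both arrays of any 1 group. Of the 23 members 5 met it only in untreated cells (miR-134, miR-154*, miR-409-5p, miR-487b and miR-543), and these make up 3 of the 12 and 4 of the 17 called. Among the 9 members detected on all 12 arrays 3 were called lower at 12 h and 6 at 24 h, with medians of -0.39 and -0.63. Of the 93 miRNAs detected on all 12 arrays 43% and 48.4% were called in either direction (22 and 27 miRNAs lower), with medians of -0.05 and 0.08. The 12 h count was 6 without WT untreated replicate 1 and 5 without WT 12 h replicate 2. The 24 h count was 11 without WT untreated replicate 1 or without WT 24 h replicate 2. Both counts were 0 when arrays were scaled over all miRNAs (limma, 5 and 11 members at an unadjusted p under 0.05) and 0 on the deposited values (limma, 2 and 2). Few miRNAs of any kind were called there, 3 and 1 of 176 with the former and 4 and 3 with the latter. With normexp background correction 3 and 4 members were called lower, beside 20 and 22 of all 176. With the scanner software's total signal per miRNA 2 and 3 members were called lower, beside 15 and 19 of all 176. The excess of the members over all tested miRNAs was thus much smaller with these 2 settings.

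miR-410, the last hairpin of the cluster, fell most. Its level was 36.5% and 35.5% in untreated WT cells, 10.6% and 12.5% at 12 h, and 9.04% and 10.2% at 24 h. The treated arrays all lay far below the untreated ones. The change was -1.65 ± 0.13 at 12 h (limma adjusted p = 5.08e-05) and -1.91 ± 0.13 at 24 h (limma adjusted p = 4.66e-05), and both were called without any single array. Without the 3 arrays of low signal the 24 h change was -1.96.

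miR-379, the first hairpin, was at 90.1% and 77.9% in untreated WT cells, 45.4% and 48.4% at 12 h, and 45.3% and 49.8% at 24 h. It had thus reached its 24 h level by 12 h, with changes of -0.84 ± 0.14 and -0.82 ± 0.14, each called in all 12 fits that leave out an array. miR-329, which with miR-134 is known for a part in dendrite growth, was at 32.2% and 26.2% untreated, 15% and 10.8% at 12 h, and 11.6% and 9.22% at 24 h. It fell by 1.19 ± 0.26 and by 1.49 ± 0.26, with no overlap between treated and untreated arrays.

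miR-382 was at 14.5% and 14.1% in untreated WT cells, 8.14% and 7.35% at 12 h, and 6.79% and 6.62% at 24 h. miR-369-5p was at 10.6% and 9.87% untreated, 4.74% and 5.16% at 12 h, and 4.84% and 4.60% at 24 h. Replicates of both lay close together, and both were called at both times in all 12 fits that leave out an array, at -0.89 ± 0.14 and -1.09 ± 0.14 for miR-382 and -1.05 ± 0.14 and -1.11 ± 0.14 for miR-369-5p. With the scanner software's total signal per miRNA, miR-382 turned higher at 12 h, by 0.40. On WT 12 h replicate 2 that total was 168 intensity units, against 23.3 for the sum of the software's own totals for its probes. Of 224 detected values of tested members 69 had such a total more than 1.5 times the sum of their probe totals.

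miR-495, whose sequence is close to that of miR-543, was at 9.25% and 8.09% in untreated WT cells, 6.60% and 5.29% at 12 h, and 4.16% and 3.94% at 24 h. Its groups did not overlap, and it fell by 0.55 ± 0.16 at 12 h and by 1.09 ± 0.16 at 24 h. The 12 h change turned to 0.45 with the software's total signal and to 0.63 with the deposited values. miR-543 was at 4.38% and 4.21% untreated, 3.30% and 1.33% at 12 h, and 2.02% and 1.93% at 24 h, close to the floor. Its 12 h fall of 0.77 ± 0.25 was called in only 3 of the 12 fits that leave out an array, and its 24 h fall of 1.12 ± 0.25 in 8. With normexp background correction miR-543 stood at 0.03 at 24 h.

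miR-134 lay at 6.31% and 3.54% in untreated WT cells and below the floor on all 4 treated WT arrays, of which 1 detected it. At 12 h it was undetected on both arrays and at least 1.87-fold lower. That fold sets the untreated mean against, on each treated array, the lowest detected signal or its own level after flooring, whichever is higher. The fitted change of miR-134, -1.30 ± 0.25 at both times, is set by the floor. miR-541 was at 12.0% and 8.93% untreated, 8.89% and 5.74% at 12 h, and 5.72% and 3.77% at 24 h. Only its 24 h change of -1.16 ± 0.34 was called, and in 8 of the 12 fits that leave out an array. Of the members that fell at 24 h alone, miR-376a fell by 1.11 ± 0.35, miR-300 by 0.56 ± 0.19 and miR-411 by 0.63 ± 0.18, called in 4, 2 and 9 of those 12 fits. The members not called at either time in WT were miR-299*, miR-376c, miR-377, miR-487b and miR-494. All but miR-376c had negative changes, between -0.07 and -0.33. miR-376c, the only tested member with positive changes at both times, was at 13.3% and 10.5% untreated, 10.8% and 33.4% at 12 h, and 12.0% and 22.7% at 24 h. Its changes were 0.68 ± 0.51 and 0.48 ± 0.51, within the spread of its replicates (limma adjusted p = 0.307 and 0.469).

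**Figure D3:**
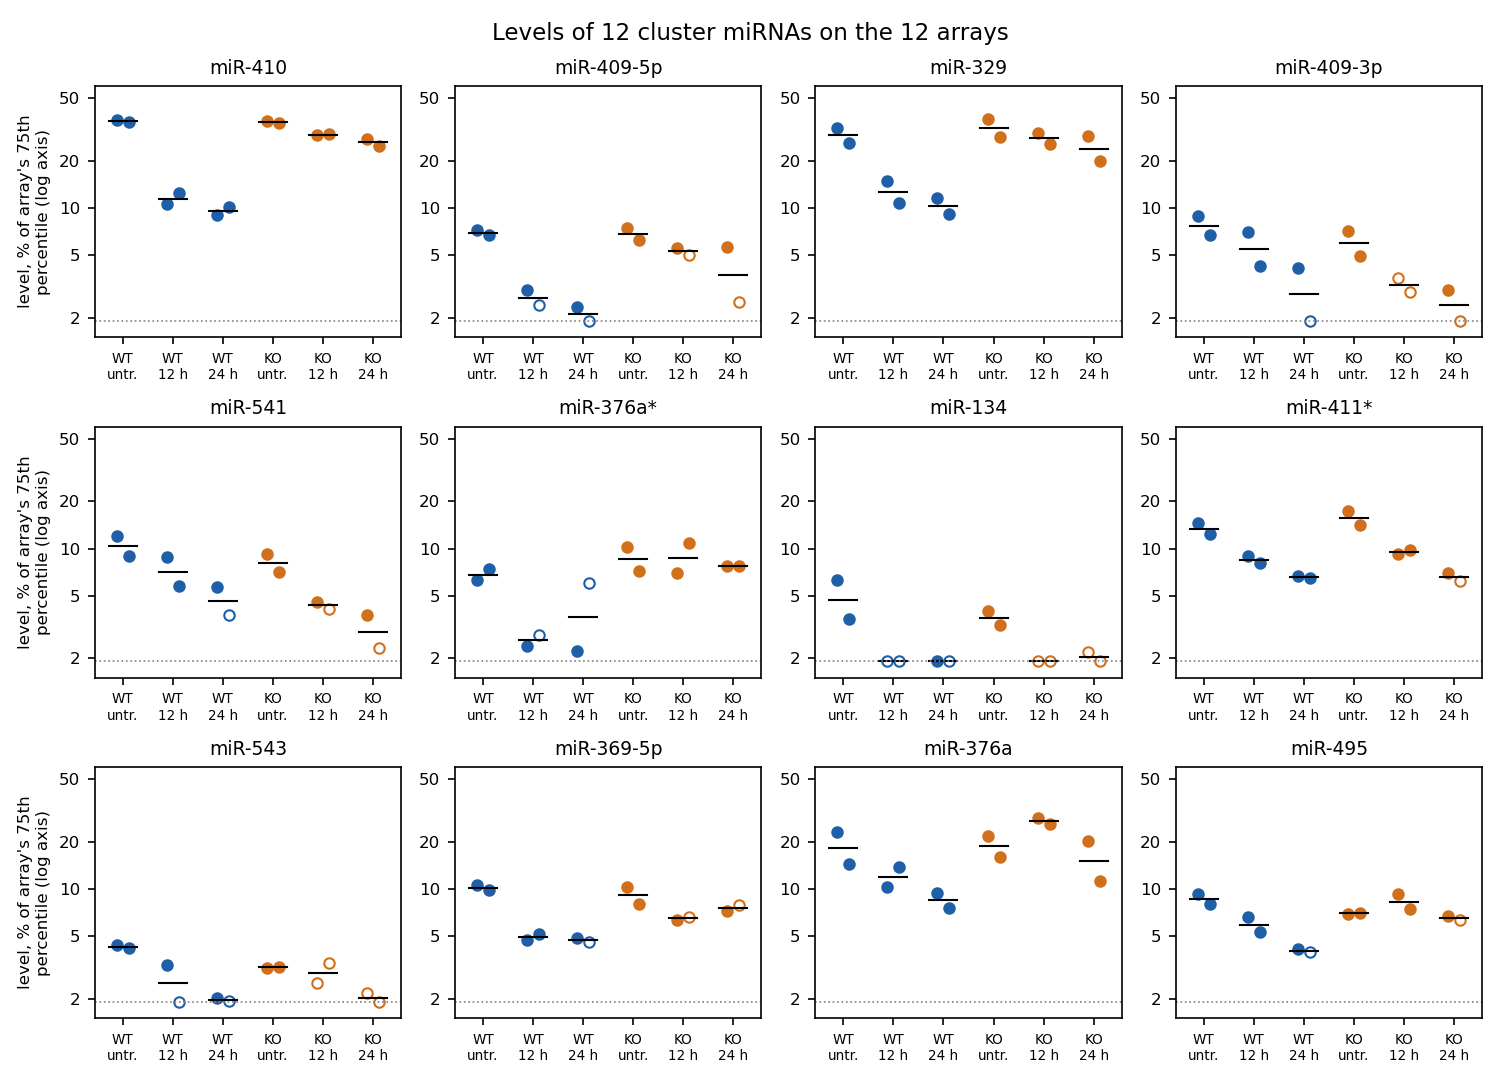
Levels of the 12 members with the largest called tunicamycin changes, in percent of the array's 75th percentile on a log axis, by group. Each point is 1 array (blue WT, orange KO), open where the miRNA was not detected, the bar is the mean of the log values, and the dotted line is the floor of 1.91%, at which lower values are drawn. The WT points of miR-410 drop from about 36% to between 9.04% and 12.5%, while its KO points stay between 24.9% and 35.9%.

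In knockout cells fewer members were called. At 12 h 4 of 23 were called lower and 0 higher, and at 24 h 6 were called lower and 0 higher, where 25.6% and 30.7% of all tested miRNAs were called (3.98% and 5.11% lower). The members' median change was -0.23 and -0.39, beside 0.25 and 0.15 over all tested miRNAs. Of the called members, miR-134 and miR-154* at each time had met the filter only in untreated cells. Among the 9 members detected on all 12 arrays 0 were called at 12 h (limma, 0 at an unadjusted p under 0.05 when only such miRNAs were fitted) and 2 at 24 h, both lower, with medians of -0.17 and -0.31. Of the 93 miRNAs detected on all 12 arrays 29% and 34.4% were called in either direction, with medians of 0.34 and 0.30. Only 1 and 3 of them were called lower, and the 3 at 24 h include the 2 members. With normexp the members' medians turned to 0.02 and 0.13. With scaling over all miRNAs the median of all tested miRNAs moved to 0.03 and -0.04. The 12 h count was 0 without KO untreated replicate 1 or without KO 12 h replicate 1 (limma, 4 and 5 at an unadjusted p under 0.05), 1 without KO 12 h replicate 2, and 2 without WT 12 h replicate 1 or without WT 24 h replicate 1. The 24 h count was 1 without KO 24 h replicate 2, 2 without KO untreated replicate 1, and 3 without either KO 12 h array. It was 10 when arrays were scaled over miRNAs outside the locus. Epithelial markers appeared on these same treated KO arrays, and their part in the result was not tested.

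miR-411* fell in knockout cells at both times and was the member with the smallest p there. It was at 17.5% and 14.2% in untreated KO cells, 9.28% and 9.85% at 12 h, and 6.99% and 6.23% at 24 h. Treated and untreated arrays did not overlap, and the changes were -0.72 ± 0.15 at 12 h (limma adjusted p = 0.00751) and -1.26 ± 0.15 at 24 h (limma adjusted p = 0.000403). The 24 h call held in all 12 fits that leave out an array and the 12 h call in 10. With the software's total signal the 12 h change turned to 0.35.

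miR-541 was at 9.18% and 7.07% in untreated KO cells, 4.58% and 4.11% at 12 h, and 3.76% and 2.32% at 24 h, with a 24 h fall of 1.45 ± 0.34 and an uncalled change of -0.89 ± 0.34 at 12 h. miR-410 was at 35.9% and 34.9% untreated, 29.2% and 29.6% at 12 h, and 27.6% and 24.9% at 24 h. Its groups did not overlap, but the changes were small, -0.27 ± 0.13 at 12 h (not called) and -0.43 ± 0.13 at 24 h (limma adjusted p = 0.0347), the latter called in 7 of 12 fits that leave out an array. miR-369-5p was at 10.4% and 8.09% untreated, 6.35% and 6.65% at 12 h, and 7.26% and 7.95% at 24 h. It was called at 12 h, at -0.50 ± 0.14, in 5 of 12 such fits, and not at 24 h.

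miR-134 was at 3.98% and 3.28% in untreated KO cells and undetected on all 4 treated KO arrays, where the highest value was 2.20%. Its fitted changes of -0.92 ± 0.25 and -0.82 ± 0.25 were called, but the lowest detected signal of those arrays is too high to give a fold. miR-154* was likewise undetected on the treated KO arrays, and was at least 1.17-fold lower at both times. miR-300 was called at 24 h, at -0.64 ± 0.19, in 2 of 12 fits that leave out an array. Of the 12 members called in WT at 12 h, 3 (25%) were called in KO, which is 75% of the 4 called there. Of the 17 called in WT at 24 h, 6 (35.3%) were called in KO, which is 100% of the 6 called there. The WT and KO comparisons share no arrays. The shared members include miR-134 at both times and miR-154* at 24 h, which met the filter only in untreated cells. The overlap over all tested miRNAs was not counted, so these percentages have no background beside them.

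**Figure D4:**
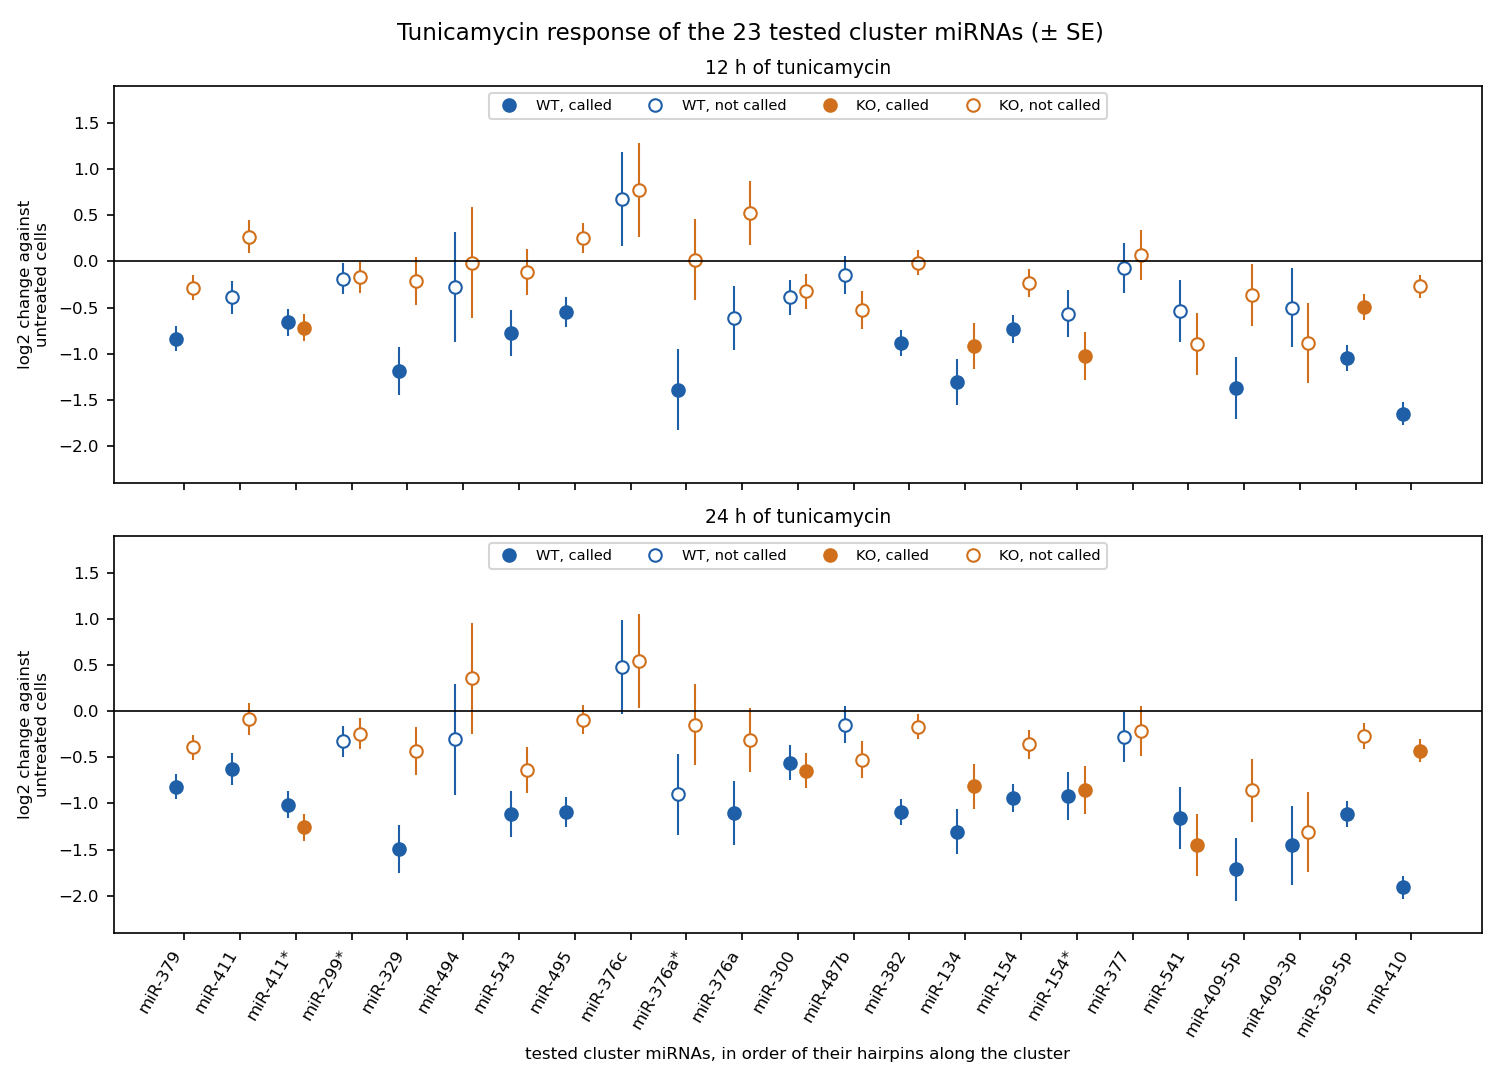
Log2 change ± SE after 12 h (top) and 24 h (bottom) of tunicamycin for the 23 tested members, in order of their hairpins along the cluster, in WT (blue) and KO (orange) cells. Filled points are called. At 24 h 17 WT points and 6 KO points are filled, and miR-410, at the far end, has the lowest WT value (-1.91) beside a KO value of -0.43.

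The change after tunicamycin was lower in WT than in KO for 18 of 23 members at 12 h and for 19 at 24 h. The same held for 118 and 123 of all 176 tested miRNAs, so most miRNAs leaned that way. The difference itself (KO change minus WT change) was called for 3 members at 12 h and 4 at 24 h, all higher in KO, where 24.4% and 20.5% of all tested miRNAs were called (22.2% and 19.9% higher). The members' median difference was 0.50 at 12 h and 0.49 at 24 h, beside 0.37 and 0.44 over all tested miRNAs, so the members as a set lay close to the rest. With the deposited values the members' medians turned to -0.41 and -0.12, and those of all tested miRNAs to -0.48 and -0.09. Epithelial markers were detected on the treated KO arrays alone (3 to 5 of 8), and their part in these differences was not tested. With run as a block the 12 h count was 6. It was 1 without WT untreated replicate 1, without WT 12 h replicate 2 or without KO 12 h replicate 1, and 5 without WT untreated replicate 2. The 24 h count was 1 without WT untreated replicate 1.

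miR-410 had the largest called difference, 1.38 ± 0.18 at 12 h (limma adjusted p = 0.00168) and 1.48 ± 0.18 at 24 h (limma adjusted p = 0.00122), called in all 12 fits that leave out an array. Without the 3 arrays of low signal the differences were 1.18 and 1.43 and did not pass (limma adjusted p = 0.0787 and 0.0716). miR-382 differed by 0.88 ± 0.20 and 0.93 ± 0.20, called in 9 and 11 of the 12 fits that leave out an array. In KO cells it was at 14.3% and 12.0% untreated, 13.1% and 12.8% at 12 h, and 12.9% and 10.5% at 24 h, a set of values that overlap, beside the fall in WT given above. miR-495 differed by 0.80 ± 0.23 and 1.00 ± 0.23, called in only 4 and in 9 of those 12 fits. Its KO arrays lay at 6.92% and 7.08% untreated, 9.32% and 7.45% at 12 h, and 6.78% and 6.34% at 24 h. miR-369-5p differed at 24 h, by 0.84 ± 0.20, called in 9 of those 12 fits, and not at 12 h (0.55 ± 0.20, limma adjusted p = 0.0895). The 12 h differences of miR-382 and the 24 h differences of miR-495 turned negative with the software's total signal.

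Without treatment 0 of 23 members differed between the genotypes (limma, 1 at an unadjusted p under 0.05), where 11.4% of all tested miRNAs were called. The median difference was -0.01, beside -0.03 over all. The smallest p belonged to miR-154, at 13.1% and 13.0% in WT and 20.8% and 15.4% in KO, a difference of 0.45 ± 0.15 (limma adjusted p = 0.109). miR-495 at -0.31 ± 0.16 and miR-487b at 0.38 ± 0.20 followed. With the replicate block 1 member was called, and 1 without WT untreated replicate 2 and 2 without KO untreated replicate 2.

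After tunicamycin, several members were higher in KO cells than in WT cells. At 12 h 9 of 23 were called higher and 0 lower, and at 24 h 8 higher and 0 lower, where 38.1% and 34.7% of all tested miRNAs were called (29.5% and 27.3% higher). The members' share is thus near the background. Their median difference was 0.26 and 0.32, beside 0.23 and 0.25 over all, and with the deposited values the 12 h medians turned to -0.21 for the members and -0.42 for all. The treated KO arrays are those with epithelial markers (3 to 5 of 8 detected, against 0 on the treated WT arrays), whose part in these differences was not tested. Both genotypes lie in each run, so the within-run values are given for the leading members. miR-410 was higher in KO by 1.36 ± 0.13 at 12 h (1.46 and 1.25 within the 2 runs) and by 1.45 ± 0.13 at 24 h (1.61 and 1.29). miR-329 was higher by 1.13 ± 0.26 (1.01 and 1.25) and by 1.21 ± 0.26 (1.32 and 1.11), with KO arrays at 30.2% and 25.7% at 12 h and 28.9% and 19.8% at 24 h.

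miR-154 was higher in KO by 0.95 ± 0.15 at 12 h (0.91 and 0.99 within the runs) and by 1.03 ± 0.15 at 24 h (1.00 and 1.06), and was already the member with the smallest p before treatment. miR-376a* was higher at 12 h by 1.74 ± 0.44 and miR-376a by 1.18 ± 0.35, and neither was called at 24 h (1.08 ± 0.44 and 0.83 ± 0.35). Their 12 h calls held in 9 and 6 of the 12 fits that leave out an array. miR-382, miR-379, miR-411 and miR-495 were called higher at both times, by 0.50 to 0.80, and miR-369-5p at 24 h by 0.69 ± 0.14. The 12 h call of miR-495 held in only 5 of those 12 fits, and the other calls of these members in 9 to 12. The 12 h count was 5 without WT 12 h replicate 2 or without KO 12 h replicate 1. With quantile normalization the counts were 2 and 1.

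Between 12 h and 24 h of tunicamycin 0 members differed in WT and 0 in KO (limma, 2 and 2 at an unadjusted p under 0.05), where 1.14% and 0.568% of all tested miRNAs were called. The members with the smallest p in WT were miR-495 at -0.55 ± 0.16, miR-411* at -0.36 ± 0.15 and miR-409-3p at -0.95 ± 0.43. In KO they were miR-411* at -0.54 ± 0.15, miR-376a at -0.84 ± 0.35 and miR-495 at -0.34 ± 0.16. None passed (limma adjusted p of 0.243 to 0.748).

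Both strands were tested for 4 hairpins, and their changes are set side by side without a test of the difference. From the hairpin of miR-411, the star strand fell in both genotypes while miR-411 was not called in KO. miR-411 was at 13.0% and 10.9% in untreated WT, 7.91% and 10.5% at 12 h, and 7.59% and 7.87% at 24 h. In KO it was at 12.0% and 13.6% untreated, 15.3% and 15.5% at 12 h, and 13.3% and 10.9% at 24 h, changes of 0.27 ± 0.18 and -0.08 ± 0.18 beside -0.72 and -1.26 for miR-411*. In WT miR-411* was at 14.5% and 12.4% untreated, 8.91% and 8.05% at 12 h, and 6.71% and 6.51% at 24 h, a fall of 0.66 ± 0.15 and of 1.02 ± 0.15. The difference between knockout and wild type after treatment was not called for miR-411* (0.18 ± 0.15 and 0.00 ± 0.15), whereas miR-411 was called higher in KO at both times (0.76 ± 0.18 and 0.64 ± 0.18).

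From the hairpin of miR-154, the star strand was called in KO at both times and miR-154 at neither. But miR-154* met the filter only in untreated cells and was undetected on all treated KO arrays. Its KO calls held in 8 of the 12 fits that leave out an array at 12 h and in 3 of 12 at 24 h. These calls therefore do not set the strands apart. miR-154 was at 8.02% and 7.72% in WT at 12 h and 7.21% and 6.42% at 24 h, below its untreated arrays, and at 15.1% and 15.3%, then 14.5% and 13.4%, in KO. It fell in WT, by 0.73 ± 0.15 and 0.94 ± 0.15, and its KO changes of -0.23 ± 0.15 and -0.36 ± 0.15 were not called. miR-154* was at 4.71% and 3.57% in untreated WT, 2.80% and 2.74% at 12 h, and 2.44% and 1.58% at 24 h. In KO it was at 5.28% and 3.42% untreated, 2.09% and 2.08% at 12 h, and 2.00% and 2.77% at 24 h. Its changes were -0.57 ± 0.26 (not called) and -0.92 ± 0.26 in WT, and -1.03 ± 0.26 and -0.85 ± 0.26 in KO. These levels lie near the floor, and with normexp the called changes of miR-154* turned to between 0.02 and 0.24.

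Of the strands of mir-376a, a hairpin family known for adenosine-to-inosine editing of its precursors, only the star strand was called in WT at 12 h. miR-376a was at 23.2% and 14.4% in untreated WT, 10.3% and 13.7% at 12 h, and 9.43% and 7.62% at 24 h, with a 12 h change of -0.62 ± 0.35 that was not called. In KO it was at 21.9% and 16.0% untreated, 28.2% and 25.8% at 12 h, and 20.3% and 11.2% at 24 h. miR-376a* was at 6.30% and 7.38% in untreated WT, 2.40% and 2.83% at 12 h, and 2.23% and 6.02% at 24 h. In KO it was at 10.2% and 7.23% untreated, 6.96% and 10.8% at 12 h, and 7.77% and 7.75% at 24 h. The WT change of miR-376a* was called at 12 h, -1.39 ± 0.44, in 2 of 12 fits that leave out an array, and its probes disagreed in sign there and in the other 3 tunicamycin comparisons.

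miR-409-5p was at 7.21% and 6.72% in untreated WT, 2.98% and 2.42% at 12 h, and 2.35% and 0.0925% at 24 h. It fell by 1.37 ± 0.34 and by 1.71 ± 0.34, and in KO, at 7.47% and 6.24% untreated, 5.58% and 5.05% at 12 h, and 5.62% and 2.52% at 24 h, its changes of -0.36 ± 0.34 and -0.86 ± 0.34 were not called. miR-409-3p was at 8.87% and 6.76% in untreated WT, 7.0% and 4.27% at 12 h, and 4.17% and 1.67% at 24 h. In KO it was at 7.13% and 4.97% untreated, 3.58% and 2.92% at 12 h, and 3.01% and below 0 at 24 h. Only its WT change at 24 h was called, -1.45 ± 0.43, in 5 of 12 fits that leave out an array, and its KO change then was -1.31 ± 0.43 (limma adjusted p = 0.053). In WT at 24 h, 8 of 9 tested 5′ strands and 9 of 14 tested 3′ strands were called lower, with medians of -1.09 and -0.97. Of all tested miRNAs 29.5% were called lower there, with a median of -0.03. The response difference at 24 h had medians of 0.58 and 0.11, beside 0.44 over all tested miRNAs. Of members that met the filter only in untreated cells, miR-134 and miR-409-5p are 5′ strands and miR-154*, miR-487b and miR-543 are 3′ strands.

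Position, base composition and level related weakly to the response, as a description over members that share arrays, scaling and a chromosomal region. At 24 h in WT, Pearson's r of the change with the order of the hairpins was -0.38 (Spearman's rho -0.43, n = 23 members). It was -0.03 with the GC content of the mature sequence (n = 21) and -0.08 with the untreated level (n = 23). In KO at 24 h the values were -0.32, -0.25 and 0.17. Of the 8 tested members inside Mirg 7 were called lower in WT at 24 h and 3 in KO, and of the 15 before it 10 and 3. Over all tested miRNAs 29.5% were called lower in WT and 5.11% in KO. Some members met the filter only in untreated cells, miR-154* and miR-409-5p inside Mirg and miR-134, miR-487b and miR-543 before it.

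The non-member miRNAs whose 6 group means were most like the mean of the tested members were miR-199b* (Pearson's r = 0.98), miR-433 (0.98), miR-652 (0.98), miR-431 (0.98) and miR-127 (0.97), over 6 groups, of which 4 were given tunicamycin. Of these 5, miR-433, miR-431 and miR-127 come from the same imprinted domain, upstream of the cluster. The list of other miRNAs of the domain holds 25 on the array, miR-1193 and miR-1197 among them, and the 9 that were tested all lie upstream of the cluster. In WT 5 of the 9 were called lower at 12 h and 7 at 24 h, with medians of -1.07 and -1.23, and 0 were called in KO at either time (limma, 0 and 3 at an unadjusted p under 0.05). Over all tested miRNAs 23.9% and 29.5% were called lower in WT. In KO 25.6% and 30.7% were called, but only 3.98% and 5.11% lower, so 0 of 9 lower there is near that share. At 24 h miR-431 stood at -2.08 in WT and -0.59 in KO, and miR-433 at -2.08 and -0.84, the KO values not called. The response difference was called for miR-431 and miR-434-3p at both times.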

How the data were processed

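Total RNA labelled with Cy3 was hybridised to 1-colour Agilent mouse miRNA arrays, 2 per group, described in the labels as independent experiments. Per the file headers, the authors' Feature Extraction 10.7.1.1 output gives background-subtracted spot intensity, on a linear scale and not scaled between arrays. The authors also deposited log2 values, which match the total gene signal of the software on the log2 scale within 1.18e-06 and are empty where a miRNA was not detected. They are used here as an alternative.

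Spots of a probe were averaged without outlier flags, probes summed per miRNA, and each array divided by its 75th percentile over 93 miRNAs detected on all 12 arrays, 9 of them members. Values were floored at 1.91% of it and log2 taken. A mouse miRNA was tested if some group had it detected on both its arrays, which gave 176, with limma 3.58.1 in R 4.3.3 (6 residual and 1.65 prior degrees of freedom), 11 comparisons in all, checked on simulated data. With 2 arrays per group their number limits the precision. Deviations of same-numbered arrays correlated between groups at 0.67 to 0.96 within a slide and at -0.59 to -0.11 between slides. Such arrays of a slide are thus not independent, and the residual degrees of freedom are overstated. They also share a raw file prefix in the labels, which is taken here as a run. In each treated group replicate 2 had the lower 75th percentile signal as well, and the source of the correlation was not tested.

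Members given on every array are up to 12 with the largest called change in the 4 tunicamycin comparisons, up to 4 called in each genotype or response comparison (or the 3 smallest p), and both strands of hairpins with both tested. Alternatives were another background correction, signal summary, scaling, floor, filter and block, and leaving out arrays. Members and lists were chosen with earlier results of these data known. Probes of a miRNA disagreed in sign for 1 to 4 of 23 members per tunicamycin comparison. Mature sequences are from RefSeq, and 3 members are named only.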

Additional observations from a re-analysis of the deposited data

Results flagged for a closer look

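For 4 members the change after tunicamycin differed between knockout and wild type by limma's test of the difference itself. The difference, KO change minus WT change, was 1.38 at 12 h and 1.48 at 24 h for miR-410, 0.88 and 0.93 for miR-382, 0.80 and 1.00 for miR-495, and 0.84 at 24 h for miR-369-5p. All are on the log2 scale, and each of these members fell in wild type. In the fits that leave out an array, the miR-495 difference at 12 h was called in only 4 of 12. Those of miR-410 were called in all 12, and the remaining ones in 9 or 11. The KO values at 12 h were -0.27 for miR-410, -0.01 for miR-382 and 0.25 for miR-495, none of them called. Of all tested miRNAs 24.4% passed the same test at 12 h and 20.5% at 24 h. Slide row was not separable from genotype here, and the treated KO arrays alone carry epithelial markers (3 to 5 of 8 detected), whose part was not tested.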

How the results depend on the processing

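Counts of called members are given below in the order WT 12 h and 24 h against untreated, KO 12 h and 24 h, KO against WT at 12 h and 24 h, and response difference at 12 h and 24 h; as reported they are 12, 17, 4, 6, 9, 8, 3 and 4. They were 3, 4, 0, 1, 4, 3, 1 and 0 with normexp background correction, 2, 3, 1, 1, 2, 1, 0 and 0 with the software's total gene signal, and 0 throughout with the deposited log2 values and with scaling over all miRNAs (limma, 0 to 6 and 0 to 11 members at an unadjusted p under 0.05). Of all 176 tested miRNAs only 2 to 5 were called with the deposited values and 1 to 12 with scaling over all miRNAs. In the 4 tunicamycin comparisons 36, 40, 30 and 36 of the 176 were called with normexp and 26, 25, 14 and 10 with the total gene signal. The members' counts were 3, 6, 0, 3, 5, 4, 1 and 1 with only miRNAs detected on all 12 arrays, which tests 9 members, and 7, 11, 1, 2, 5, 7, 2 and 2 with no filter. In the 4 tunicamycin comparisons 43, 48, 29 and 36 of 93 miRNAs were called with the former and 44, 54, 40 and 46 of 611 with the latter. With quantile normalization the members' counts were 9, 10, 3, 2, 2, 1, 1 and 1, with scaling outside the locus 14, 18, 3, 10, 10, 8, 6 and 5, and with the floor doubled 10, 15, 2, 5, 10, 8, 4 and 4. Over all tested miRNAs the 4 tunicamycin comparisons gave 47, 46, 30 and 25 with quantile normalization. They gave 75, 82, 45 and 55 with scaling outside the locus, and 61, 73, 46 and 51 with the floor doubled. Where a count fell to 0 with normexp, with the total gene signal or with the strict filter, limma had 0 to 2 members at an unadjusted p under 0.05. With the replicate block the members' counts were 13, 18, 6, 9, 12, 11, 4 and 6, and with run as a block 11, 14, 5, 5, 13, 12, 6 and 5. Over all tested miRNAs the 4 tunicamycin comparisons gave 89, 96, 58 and 73 with the replicate block, and 78, 73, 45 and 50 with run as a block. Under either block the KO against WT counts include 2 members called lower at 12 h and 1 at 24 h. Without the 3 arrays of low signal, an alternative chosen after seeing the data, they were 11, 11, 1, 3, 7, 6, 2 and 2. Leaving out each array in turn gave 5 to 12, 11 to 17, 0 to 6, 1 to 9, 5 to 10, 6 to 11, 1 to 5 and 1 to 5. Untreated KO against WT gave 1 with the floor doubled or the replicate block, 0 to 2 without an array, and 0 under the other settings; 24 h against 12 h gave 0 under every setting. Of 63 called values of named members, the replicate block kept 63, run as a block 57, scaling outside the locus 62, the floor doubled 55, no filter 37, quantile normalization 27, normexp 16, the total gene signal 7, and the deposited values and scaling over all miRNAs 0; the last turned no direction.

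Directions turned for these. With the total gene signal, WT 12 h changes became 0.25 for miR-154, 0.40 for miR-382 and 0.45 for miR-495, the KO 12 h change 0.35 for miR-411*, KO against WT -0.66 for miR-382 at 12 h and -0.41 for miR-495 at 24 h, and response differences -0.49 for miR-382 at 12 h and -0.32 for miR-495 at 24 h. With the deposited values, WT 12 h changes became 0.42, 0.57 and 0.63 for miR-154, miR-382 and miR-495, and KO against WT at 12 h -0.58 for miR-329, -0.53 for miR-154, -0.026 for miR-379, -1.41 for miR-382 and -0.21 for miR-411. There KO against WT for miR-495 became -0.67 at 24 h and 0.15 untreated, and response differences -1.47 for miR-382 at 12 h and -0.81 for miR-495 at 24 h. With normexp, miR-154* became 0.090 in WT at 24 h and 0.022 and 0.24 in KO, miR-543 0.032 in WT at 24 h and miR-134 0.22 in KO at 24 h. The software's total exceeded the sum of its own probe totals by over 1.5 times for 69 of 224 detected values; for the other settings the cause was not tested. Low signal over background limits members near the floor, such as miR-134, miR-154*, miR-409-3p and miR-543.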
